A study of Mus musculus with 27 samples.

Results

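The nuclear genes for the mitochondrial import machinery whose symbols begin with *Timm* or *Tomm* and a number were examined in tissues of *Mlx*KO mice. Every row of the gene table whose symbol matched was taken, which gave 25 of 36333 genes, 14 *Timm* and 11 *Tomm*, and no pseudogene row had to be left out. Of these, 24 are annotated as protein coding and 1, *Tomm6os*, as a long non-coding RNA. Bulk RNA-seq had been made from liver, omental adipose tissue and skeletal muscle, with 4 mice at 5 months that each gave all 3 tissues and 5 samples per tissue at 20 months, 27 libraries in all. All mice were males of genotype MlxKO. They had a B6.129 background, carried the allele Gt(ROSA)26Sortm1(cre/ERT2)Tyj and were homozygous for Mlx Flox, so that a tamoxifen-activated Cre driven by the ubiquitous *ROSA26* locus can remove the floxed part of *Mlx* in any tissue. Each had been given tamoxifen in corn oil intraperitoneally at 75 mg/Kg on 5 successive days, at weaning and once it weighed at least 15 g. All groups share the genotype and the tamoxifen treatment, and the comparisons below are between ages and between tissues of *Mlx*KO mice. The loss of *Mlx* is not complete in this model: by the study's own measurements, residual *Mlx* expression was low in liver and adipose tissue and clearly higher in skeletal muscle, where it also varied between mice. The extent of deletion and the tissue therefore cannot be told apart in the tissue comparisons. In adipose tissue and muscle, residual *Mlx* in those measurements also reached higher values in the older samples than in the younger ones, with overlap between ages. The age comparisons in these tissues are therefore not free of differences in the extent of deletion, and its part in the age changes was not tested. Wild-type mice were not analysed here. The names of the older samples carry the number 18, and the study's own excision measurements list samples with matching number endings at 18 months. Their annotation gives 20 months, which is used below. The 4 young mice are called A, B, C and D in the order of their numbers, and old samples by their number.

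Most mitochondrial proteins are made in the cytosol and are imported. Nearly all enter through the TOM complex of the outer membrane, in which receptors recognise the precursor and pass it to a beta-barrel pore. Precursors with a cleavable presequence then pass through the TIM23 complex of the inner membrane, whereas carrier proteins are escorted across the intermembrane space by small TIM chaperones and are inserted by the TIM22 complex. *Mlx* encodes a basic helix-loop-helix leucine zipper protein that binds E boxes as a partner of the glucose-sensing factors MondoA and ChREBP.

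The libraries held between 14384695 and 25673919 counted reads. Values are reads per gene scaled to library size and divided by a further factor of each library, and are given in that unit throughout. The labelled tissues matched their markers: the summed value of 6 hepatocyte genes was at least 45490 in each liver library and at most 332 in any other, that of 7 adipocyte genes was at least 4815 in each adipose library and at most 255 elsewhere, and that of 7 muscle fibre genes was at least 131686 in each muscle library and at most 905 elsewhere. *Mlx* itself, the targeted gene, had values of 18.8 to 32.4 in liver, 8.19 to 13.9 in the adipose libraries and 7.04 to 11.6 in muscle. With no sample of intact *Mlx* to set beside them, these values do not check the genotype. *Mlx* did not pass the test between ages in any tissue (limma adjusted p = 0.168 in liver, 0.349 in adipose tissue and 0.503 in muscle). In bulk tissue, fewer cells of a type and less RNA per cell cannot be told apart.

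The sequences around the start sites are shown for 5 members. RefSeq promoters of build GRCm38.p6, which run from 250 bases before to 50 bases after the start, were matched for 22 of the 25 members. *Tomm6* is shown because it was the member that limma called between ages in all 3 tissues. *Timm10b* and *Timm22* are shown because limma called them in more than 1, and *Timm9* and *Timm10* because they hold the E box CACGTG. All are written 5′ to 3′ on the gene's own strand, and capitals mark a match on either strand to the E box CACGTG, the ETS core CCGGAAG or the NRF1 core GCATGCGC.
Tomm6, chr17:47688337-47688636, minus strand: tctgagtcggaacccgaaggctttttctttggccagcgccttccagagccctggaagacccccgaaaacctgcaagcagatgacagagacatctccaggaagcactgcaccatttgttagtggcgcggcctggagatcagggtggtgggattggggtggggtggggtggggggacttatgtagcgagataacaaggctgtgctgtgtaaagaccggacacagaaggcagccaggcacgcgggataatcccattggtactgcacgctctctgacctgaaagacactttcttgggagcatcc
Timm10b, chr7:105640195-105640494, plus strand: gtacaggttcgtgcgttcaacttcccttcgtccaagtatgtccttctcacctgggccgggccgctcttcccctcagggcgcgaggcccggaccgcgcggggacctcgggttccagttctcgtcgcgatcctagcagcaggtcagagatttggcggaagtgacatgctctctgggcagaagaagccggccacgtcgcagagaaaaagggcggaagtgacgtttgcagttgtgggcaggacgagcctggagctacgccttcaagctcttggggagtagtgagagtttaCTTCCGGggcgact
Timm22, chr11:76406893-76407192, plus strand: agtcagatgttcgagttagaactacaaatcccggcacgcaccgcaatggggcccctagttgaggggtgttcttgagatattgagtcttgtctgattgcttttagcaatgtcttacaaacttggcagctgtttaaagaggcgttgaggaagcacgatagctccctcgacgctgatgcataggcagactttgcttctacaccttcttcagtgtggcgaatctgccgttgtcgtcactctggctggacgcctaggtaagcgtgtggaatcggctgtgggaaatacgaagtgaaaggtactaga
Timm9, chr12:71136626-71136925, minus strand: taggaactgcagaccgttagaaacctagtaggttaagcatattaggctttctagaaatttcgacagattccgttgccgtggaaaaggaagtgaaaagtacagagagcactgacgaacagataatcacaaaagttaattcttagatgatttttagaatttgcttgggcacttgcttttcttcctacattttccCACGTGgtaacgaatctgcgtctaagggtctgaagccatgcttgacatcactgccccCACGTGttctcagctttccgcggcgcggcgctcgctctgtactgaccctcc
Timm10, chr2:84826771-84827070, plus strand: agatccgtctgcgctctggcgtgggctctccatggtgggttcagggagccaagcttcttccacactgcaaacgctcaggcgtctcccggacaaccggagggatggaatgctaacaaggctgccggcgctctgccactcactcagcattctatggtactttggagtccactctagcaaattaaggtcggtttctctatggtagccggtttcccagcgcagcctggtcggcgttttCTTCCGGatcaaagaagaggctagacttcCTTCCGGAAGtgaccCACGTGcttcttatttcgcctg
The *Timm9* promoter held 2 E boxes, starting 58 bases and 1 base before the start site. The *Timm10* promoter held 1 E box, 29 bases into the transcribed part, and 3 matches to the ETS core, of which 2 overlap. The *Tomm6* and *Timm22* windows shown held none of these letters, and that of *Timm10b* held a single ETS core. *Timm22* has another window, chr11:76406675-76406974, around the start of the annotated gene. It is not shown and also held none of them.

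Across the family, 6 of the 22 members with a promoter held the E box (*Timm10*, *Timm8a1*, *Timm9*, *Tomm20*, *Tomm20l* and *Tomm6os*), or 27.3%, beside 8.09% of all 27025 genes with a promoter in the table. The ETS core was present in 8 of 22, or 36.4%, beside 9.93% of all genes, and the NRF1 core in 1 (*Timm13*), or 4.55%, beside 3.05%. Of the 8 members that limma called between ages in at least 1 tissue, 7 had a promoter and 0 of these held an E box. A match is a description of the letters in a window and not a binding site.

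The level of the members was first compared per kb of exon, since the exon length of the members ranged from 518 to 7280 bases. *Timm23*, the channel subunit of the TIM23 complex, had the highest level per kb in each tissue, with a mean of 122 in liver, 52.0 in the adipose libraries and 212 in muscle over 9 samples each. *Tomm6*, a small subunit that stabilises the TOM complex, stood next in liver at 102 and in adipose tissue at 49.0, and *Timm8b*, a small TIM chaperone, stood next in muscle at 104. The ranges of *Timm23* and *Tomm6* per kb overlapped in liver (96.1 to 151 and 65.5 to 151) and in adipose tissue (46.2 to 63.1 and 29.3 to 74.6), so their order there is within the spread of the samples. In muscle the lowest *Timm23* value per kb, 147, lay above the highest *Timm8b* value, 140.

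The bottom of the order was shared by all 3 tissues. *Tomm6os*, a transcript antisense to *Tomm6*, had at most 0.860 per kb in any sample, with 5 to 87 reads per library. *Timm8a2*, a relative of *Timm8a1*, had between 0 and 4 reads per library and was at 0 reads in 20 of the 27. *Tomm20l*, a relative of the receptor gene *Tomm20*, had 2 reads in 1 adipose library and none in the other 26. *Timm8a2* and *Tomm20l* were not tested in any tissue and *Tomm6os* was not tested in muscle, so that 23, 23 and 22 members entered the tests in liver, adipose tissue and muscle.

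**Figure D1:**
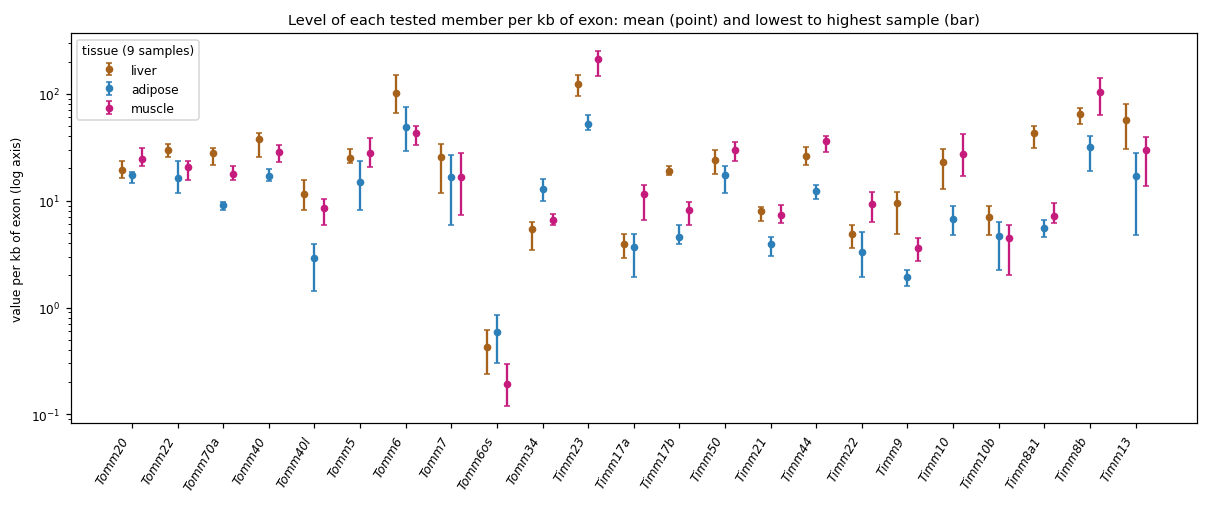
Level of the 23 tested members per kb of exon on a log axis, with the mean of 9 samples as a point and the lowest to the highest sample as a bar, in brown for liver, blue for adipose tissue and magenta for muscle. *Timm23* is the highest point in each tissue, and *Timm8a1* lies at 42.6 in liver beside 5.52 in adipose tissue and 7.26 in muscle.

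Tissue differences were then tested for each member at each age, on the log2(value + 1) scale with limma over all 27 samples. At 5 months, 20 of 23 members were higher and 2 lower in liver than in adipose tissue, whereas 36.5% of all genes were higher and 39.9% lower. At 20 months these counts were 18 and 1, beside 35.7% and 38.8% of all genes. Liver against muscle gave 10 higher and 7 lower at 5 months (36% and 36.8% of all genes) and 11 and 7 at 20 months (39.2% and 38.1%). Adipose tissue against muscle gave 2 higher and 18 lower at 5 months (41.9% and 30.9%) and 3 and 17 at 20 months (42.1% and 33.9%). The comparisons share samples and are not independent of each other.

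These tissue counts rest on the scaling of the deposited values, which summed to between 559419 and 1395315 per library. When each library was rescaled without its 20 most abundant genes, the median difference of all genes between liver and adipose tissue moved by -0.76 on the log2 scale at 5 months, and the members split into 9 higher and 5 lower. At 20 months the same rescaling gave 12 higher and 6 lower. Liver against muscle became 8 higher and 9 lower at 5 months and 10 and 8 at 20 months, and adipose tissue against muscle became 5 and 9 at 5 months and 6 and 11 at 20 months. *Tomm20*, the presequence receptor, was higher in liver than in adipose tissue at 5 months as deposited (log2 difference 0.26) and lower after rescaling (-0.70), and *Timm50*, the receptor of the TIM23 complex, likewise turned from 0.52 to -0.41.

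By log2 difference, the called members farthest from 0 each way were as follows. At 5 months the members highest in liver against adipose tissue were *Timm8a1* (2.88), *Timm13* (2.16), *Timm9* (2.12) and *Tomm40l* (2.08), and lowest *Tomm34* (-1.41) and *Tomm6os* (-0.61). At 20 months these were *Timm8a1* (2.72), *Timm9* (2.06), *Timm17b* (1.94) and *Tomm40l* (1.86) on the higher side and *Tomm34* (-1.001) on the lower. The small TIM chaperone genes *Timm8a1* and *Timm9* stood on the liver side at both ages, and *Tomm34* on the adipose side. At 5 months the members highest in liver against muscle were *Timm8a1* (2.38), *Timm9* (1.52), *Timm17b* (1.31) and *Timm13* (1.03), and lowest *Timm17a* (-1.13), *Timm22* (-0.81), *Tomm34* (-0.56) and *Timm44* (-0.44). At 20 months these were *Timm8a1* (2.48), *Tomm6* (1.33), *Timm17b* (1.11) and *Timm9* (1.11) on the higher side and *Timm17a* (-1.77), *Timm23* (-1.07), *Timm22* (-0.92) and *Timm8b* (-0.84) on the lower. The channel genes *Timm22* and *Timm23* and the subunit gene *Timm17a* stood on the muscle side. At 5 months the members highest in adipose tissue against muscle were *Tomm6os* (1.05) and *Tomm34* (0.85), and lowest *Timm10* (-1.95), *Tomm40l* (-1.76), *Timm23* (-1.75) and *Timm22* (-1.62). At 20 months these were *Tomm34* (0.92), *Tomm6os* (0.58) and *Tomm6* (0.31) on the higher side and *Timm23* (-2.19), *Timm8b* (-1.80), *Timm17a* (-1.74) and *Timm10* (-1.70) on the lower. *Tomm34* stood on the adipose side again. Each of these differences kept its direction and its call after the rescaling.

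The members with the clearest patterns are given by sample. *Timm8a1*, a small TIM chaperone on the X chromosome, had values of 55.9, 46.1, 71.1 and 69.7 in the 5-month livers of mice A, B, C and D. In their adipose tissue it had 7.05, 6.69, 6.44 and 9.11, and in their muscle 9.53, 9.11, 13.5 and 10.9. Every liver library therefore lay above every library of the other tissues, with a log2 difference of 2.88 ± 0.16 (SE) from adipose tissue (limma adjusted p = 1.1e-14) and 2.38 ± 0.16 from muscle (3.2e-13). After rescaling these were 1.98 and 2.11. Of the 50-base words in *Timm8a1* exons, 41% also occur in another gene, so its reads could have been divided differently by another counting.

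*Timm9*, which forms the main small TIM chaperone with *Timm10*, and *Timm17b* were also higher in liver than in both other tissues under both scalings. *Timm9* averaged 30.1 ± 1.62 (SD, n = 4) in 5-month liver, 6.14 ± 0.487 in adipose tissue and 9.94 ± 1.81 in muscle, with no overlap between the 3 tissues. *Tomm34*, a cytosolic cochaperone of import precursors, had the opposite pattern and was highest in adipose tissue: 30.8 ± 5.69 there at 5 months, 16.4 ± 1.005 in muscle and 10.96 ± 2.15 in liver. Its log2 difference of liver from adipose tissue was -1.41 (limma adjusted p = 5.8e-10) as deposited and -2.32 after rescaling. *Timm17a*, *Timm22* and *Timm44*, the last being the subunit that tethers the import motor, were lower in liver than in muscle at 5 months under both scalings, by -1.13, -0.81 and -0.44 as deposited.

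Adipose tissue stood below muscle at 5 months most for *Timm10*, *Tomm40l*, *Timm23* and *Timm22*, with log2 differences of -1.95, -1.76, -1.75 and -1.62, which became -1.33, -1.11, -1.06 and -0.99 after rescaling. At 20 months *Timm23* differed most, by -2.19 (limma adjusted p = 2.9e-15). *Timm23* shares 57.5% of its 50-base exon words with other annotated genes, so its level is uncertain. In the same comparison *Timm8b* differed by -1.80, *Timm17a* by -1.74 and *Timm10* by -1.70.

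Related members can be set against each other within a library, where scaling cancels. *Timm17a* and *Timm17b* encode alternative forms of the same TIM23 subunit. The ratio of *Timm17a* to *Timm17b* ranged from 0.498 to 0.758 in 9 liver libraries of both ages, from 1.46 to 3.04 in the adipose libraries and from 2.995 to 5.42 in those of muscle. Liver was thus below the other tissues in every library, and the highest adipose ratio lay just above the lowest of muscle.

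*Timm10* and *Timm10b* encode small TIM proteins, the latter a peripheral part of the TIM22 complex. The ratio of *Timm10b* to *Timm10* was 0.816 to 0.953 in the 5-month livers and 1.31 to 2.39 in the 20-month livers. In muscle it was 0.431 to 0.506 at 5 months and 0.803 to 1.05 at 20 months, and in adipose tissue 1.65 to 3.13 and 2.93 to 4.89. The ages did not overlap in liver and muscle and did in adipose tissue.

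The ratio of *Timm8a1* to *Timm8b* had medians of 1.98 and 1.69 in liver, 0.484 and 0.445 in adipose tissue and 0.272 and 0.160 in muscle at 5 and 20 months. Its ages overlapped in liver and adipose tissue and were apart in muscle (0.226 to 0.294 and 0.126 to 0.190). The ratio of *Tomm40l* to *Tomm40*, the minor and the major gene for the TOM pore, was 0.598 to 0.806 at 5 months and 0.872 to 1.26 at 20 months in liver. In muscle it was 0.731 to 0.788 and 0.814 to 1.10, again apart, and in adipose tissue 0.249 to 0.511 and 0.486 to 0.701, with overlap. These ratios were picked as descriptions and were not tested. *Timm10b*, *Timm8b* and *Tomm40l* are themselves called between ages below, so their ratios are not independent of those calls. A difference between libraries that depends on exon length does not cancel where the 2 genes differ in length.

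**Figure D2:**
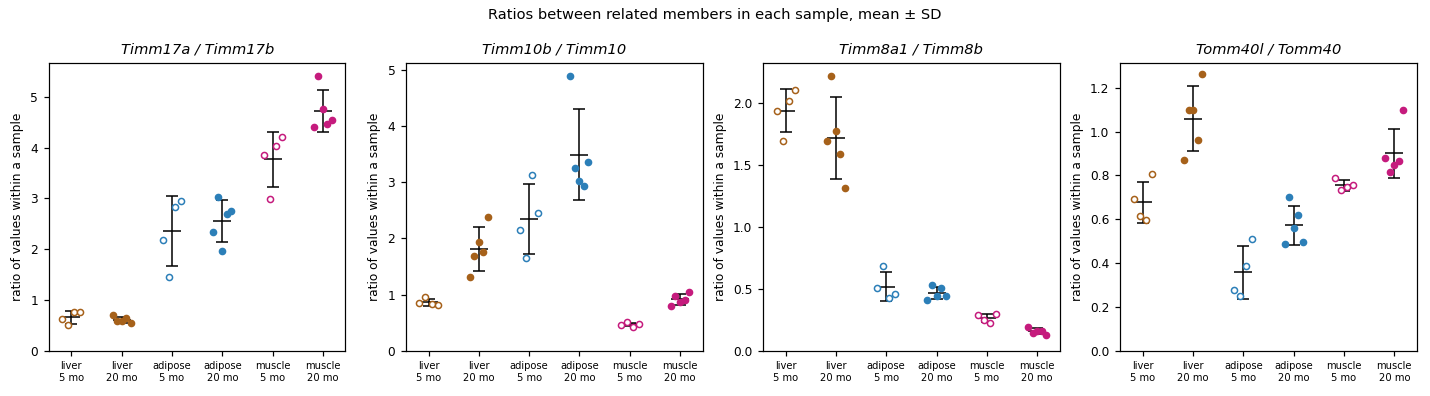
Ratio of the values of related members within each sample (dots, open at 5 months and filled at 20 months) with the mean ± SD in black, for 6 groups of 4 or 5 samples. The ratio of *Timm10b* to *Timm10* averaged 0.861 in young and 1.81 in old liver and 0.467 and 0.919 in muscle.

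Between 5 and 20 months, the members called in each tissue were all higher at 20 months. In liver 3 of 23 members rose, *Tomm6*, *Timm10b* and *Tomm40l*, against 10% of all genes tested, and 0 fell against 9.79%. In adipose tissue 4 of 23 rose, *Tomm6*, *Timm22*, *Tomm40l* and *Timm13*, against 9.75%, and 0 fell against 9.35%. In muscle 6 of 22 rose, *Tomm6*, *Timm8b*, *Timm10b*, *Timm23*, *Timm17a* and *Timm22*, against 9.13%, and 0 fell against 10.1%. The calls named here are those of limma. After adjustment edgeR called 3, 3 and 6 members higher in liver, adipose tissue and muscle, and DESeq2 3, 6 and 6. In adipose tissue edgeR left out *Timm13*, and DESeq2 added *Tomm5* and *Timm10b*. At an unadjusted p under 0.05, limma, edgeR and DESeq2 each placed 1, 1 and 0 members lower in liver, adipose tissue and muscle, and after adjustment each called 0 lower. The median log2 change over the tested members was 0.04 in liver, 0.16 in adipose tissue and 0.25 in muscle, whereas the median over all genes was 0.0011, 0.0072 and 0.02. Rescaling without the 20 most abundant genes moved the median change of all genes in liver by 0.16 and gave 9 called members there.

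The ages did not overlap for 3 of 23 members in liver and for 3 of 23 in adipose tissue, and in muscle for 2 of 22. Over all genes tested in either direction this held for 19.1%, 17.4% and 17.3%. *Tomm6* was the member without overlap in all 3 tissues.

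**Figure D3:**
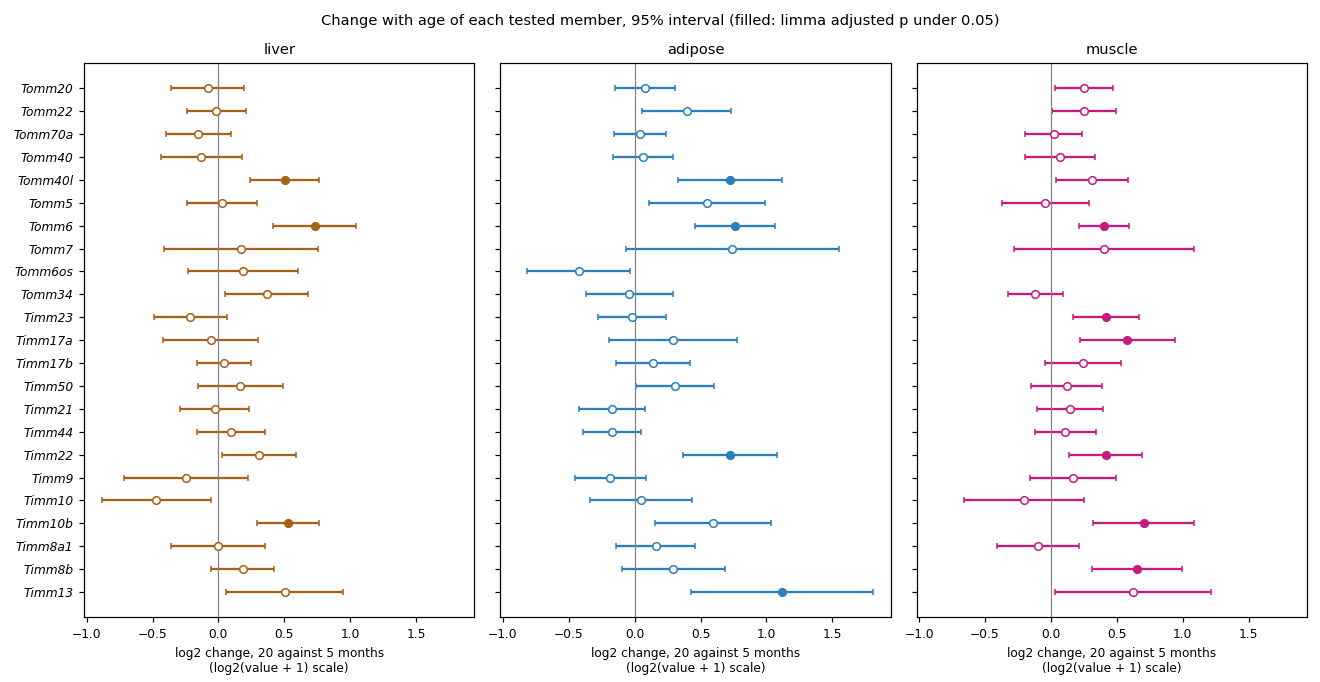
Log2 change from 5 to 20 months on the log2(value + 1) scale (x axis) of each tested member, ordered from TOM to TIM subunits, with its 95% interval, in liver, adipose tissue and muscle. Filled points passed limma at an adjusted p under 0.05: 3 in liver, 4 in adipose tissue and 6 in muscle, all to the right of 0.

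Among TOM subunits, *Tomm6* had values of 52.6, 53.5, 66.6 and 65.2 in the 5-month livers, in the order of mice A, B, C and D, and 97.5, 94.98, 121, 112 and 75.2 in the 20-month livers. In adipose tissue it had 26.5, 23.5, 30.1 and 32.2 at 5 months and 46.0, 51.1, 59.9, 40.6 and 44.5 at 20 months. In muscle it had 29.4, 26.8, 31.7 and 28.2 at 5 months and 39.9, 38.6, 36.9, 37.9 and 40.1 at 20 months. All older samples thus lay above all younger ones in each tissue. The log2 change was 0.73 ± 0.14 (SE) in liver (59.5 ± 7.44 to 100.1 ± 17.5, SD; limma adjusted p = 0.0113), 0.76 ± 0.14 in adipose tissue (28.1 ± 3.85 to 48.4 ± 7.41; 0.0127) and 0.40 ± 0.09 in muscle (29.03 ± 2.07 to 38.7 ± 1.37; 0.0110). The call held without any single library in all 3 tissues.

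*Tomm6* lies at chr17:47686645-47688386 on the minus strand. It overlaps the annotated gene *Gm21981* on the same strand, and 69% of its 50-base exon words occur in another annotated gene, so the part of the signal that belongs to *Tomm6* is uncertain. *Tomm6os* lies on the opposite strand. In adipose tissue it had 2.17, 1.74, 2.29 and 2.53 at 5 months and 1.39, 0.895, 1.22, 1.29 and 2.18 at 20 months, a log2 change of -0.43 that missed the threshold (limma adjusted p = 0.104). In liver its change was 0.19 (adjusted p = 0.498). The library kit keeps strand, but whether counting used it is not given in the sources used here.

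*Tomm40l*, which encodes another form of the pore, had values of 44.2, 38.8, 41.4 and 52.3 in the young livers and 62.9, 64.8, 73.6, 59.9 and 53.7 in the old ones. In adipose tissue it had 8.42, 6.76, 11.3 and 13.1 at 5 months and 14.03, 18.2, 18.6, 16.8 and 15.6 at 20 months. The ages were apart in both tissues, with log2 changes of 0.50 ± 0.12 (SE; limma adjusted p = 0.0186) and 0.73 ± 0.18 (0.0286). In muscle the change was 0.31 (adjusted p = 0.0973) and the ages overlapped. The call was lost in liver without young mouse B or old sample 18 (adjusted p up to 0.0572), and in adipose tissue without young mouse A or B or old sample 37, 38, 39 or 40 (up to 0.0830). *Tomm40l* overlaps *Nr1i3* on the opposite strand. *Tomm40* itself had log2 changes of -0.13, 0.06 and 0.07 in liver, adipose tissue and muscle, none past the threshold.

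The other TOM members did not pass the limma test in any tissue. The receptor genes *Tomm20*, *Tomm22* and *Tomm70a* changed by between -0.15 and 0.40 on the log2 scale, the largest being *Tomm22* in adipose tissue (adjusted p = 0.0842). *Tomm5*, a small subunit, was at 0.55 in adipose tissue (limma adjusted p = 0.0709), which DESeq2 called and edgeR did not. In liver and muscle *Tomm5* was at 0.03 and -0.04. *Tomm7*, another small subunit, spread most among the young mice: its muscle values were 8.30, 8.71, 31.4 and 20.7 at 5 months and 18.2 to 21.7 at 20 months. *Tomm34* was at 0.37 in liver (0.0890).

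Within the TIM23 complex, the calls were in muscle. *Timm23* had 197, 172, 266 and 210 in young muscle and 287, 257, 293, 276 and 282 in old muscle. Mouse C overlapped the older group and the other 3 young mice lay below it. The log2 change was 0.42 ± 0.12 (SE; 211 ± 40.03 to 279 ± 13.9, SD; limma adjusted p = 0.0297). *Timm17a* had 54.2, 47.6, 93.8 and 73.7 in young and 96.8, 103, 98.2, 91.1 and 100.1 in old muscle, where again only mouse C reached the range of the older mice. Its log2 change was 0.58 ± 0.16 (SE; limma adjusted p = 0.0319). The *Timm23* call was lost without young mouse A, B or D or old sample 56, 58, 59 or 60, with adjusted p up to 0.0733. The *Timm17a* call was lost without young mouse A or B or old sample 56, 57, 58 or 60, with adjusted p up to 0.0809. Both calls were also lost with no filter on low values, and that of *Timm17a* with a trend on exon length and GC content removed.

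In liver *Timm23* was at -0.21 (adjusted p = 0.239) and *Timm17a* at -0.06 (0.817). In adipose tissue they were at -0.02 and 0.29 (0.910 and 0.326). *Timm17b*, *Timm50*, *Timm21* and *Timm44* passed in no tissue, with log2 changes between -0.17 and 0.31. *Timm44* averaged 45.1 and 48.8 in young and old liver, 23.6 and 20.8 in adipose tissue and 61.9 and 66.5 in muscle.

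Of the carrier pathway, *Timm22*, the channel of the TIM22 complex, had 6.92, 5.80, 6.84 and 8.21 in young and 8.90, 12.8, 15.2, 13.3 and 10.96 in old adipose tissue. The ages were apart, and the log2 change was 0.72 ± 0.16 (SE; limma adjusted p = 0.0220). In muscle it had 24.4, 19.1, 28.4 and 22.02 at 5 months and 35.9, 30.4, 33.6, 26.8 and 30.6 at 20 months, overlapping at mouse C, with a change of 0.41 ± 0.13 (0.0406). In liver the change was 0.31 (0.103). The adipose call was lost without young mouse A or B or old sample 39 (adjusted p up to 0.0644), and the muscle call without young mouse A, B or D or old sample 56, 57, 58 or 60 (up to 0.1003). The muscle call was also lost with no filter on low values and with no trend in the variance.

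*Timm10b* had 19.6, 16.4, 20.2 and 20.2 in young liver and 28.2, 26.6, 30.0, 30.4 and 24.8 in old liver. In muscle it had 10.4, 7.01, 14.8 and 13.4 at 5 months and 18.1, 19.5, 20.2, 16.8 and 18.5 at 20 months. Neither tissue showed overlap between ages, and the log2 changes were 0.53 ± 0.11 (SE; limma adjusted p = 0.0123) and 0.71 ± 0.18 (0.0198). In adipose tissue the change was 0.60 (limma adjusted p = 0.0587), which DESeq2 called and edgeR did not. The limma calls in liver and muscle both held without any single library. *Timm10b* overlaps *Gm45799* on the same strand, and 9.67% of its exon words are shared. *Timm10* ran the other way in liver, with 22.97, 17.2, 24.6 and 24.8 at 5 months and 21.5, 15.8, 15.5, 17.3 and 10.4 at 20 months, a change of -0.47 that did not pass (0.0944).

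*Timm8b*, which acts with *Timm13* as an escort of hydrophobic precursors, had 32.6, 36.4, 59.96 and 36.9 in young and 63.8, 62.2, 65.9, 56.1 and 72.5 in old muscle, overlapping at mouse C. The log2 change was 0.65 ± 0.16 (SE; limma adjusted p = 0.0174). *Timm13* had 10.7, 6.13, 13.8 and 24.9 in young and 26.9, 28.4, 36.02, 24.3 and 25.7 in old adipose tissue, overlapping at mouse D, with a change of 1.12 ± 0.31 (0.0377), which edgeR did not call and which was lost with no filter on low values. The *Timm13* call was also lost without young mouse A or B or old sample 37, 38, 39 or 40, with limma adjusted p up to 0.0988, while that of *Timm8b* held without any single library. The changes of *Timm13* in liver and muscle were 0.50 and 0.62 (0.0966 and 0.118). *Timm9* and *Timm8a1* passed in no tissue, with changes between -0.25 and 0.17.

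**Figure D4:**
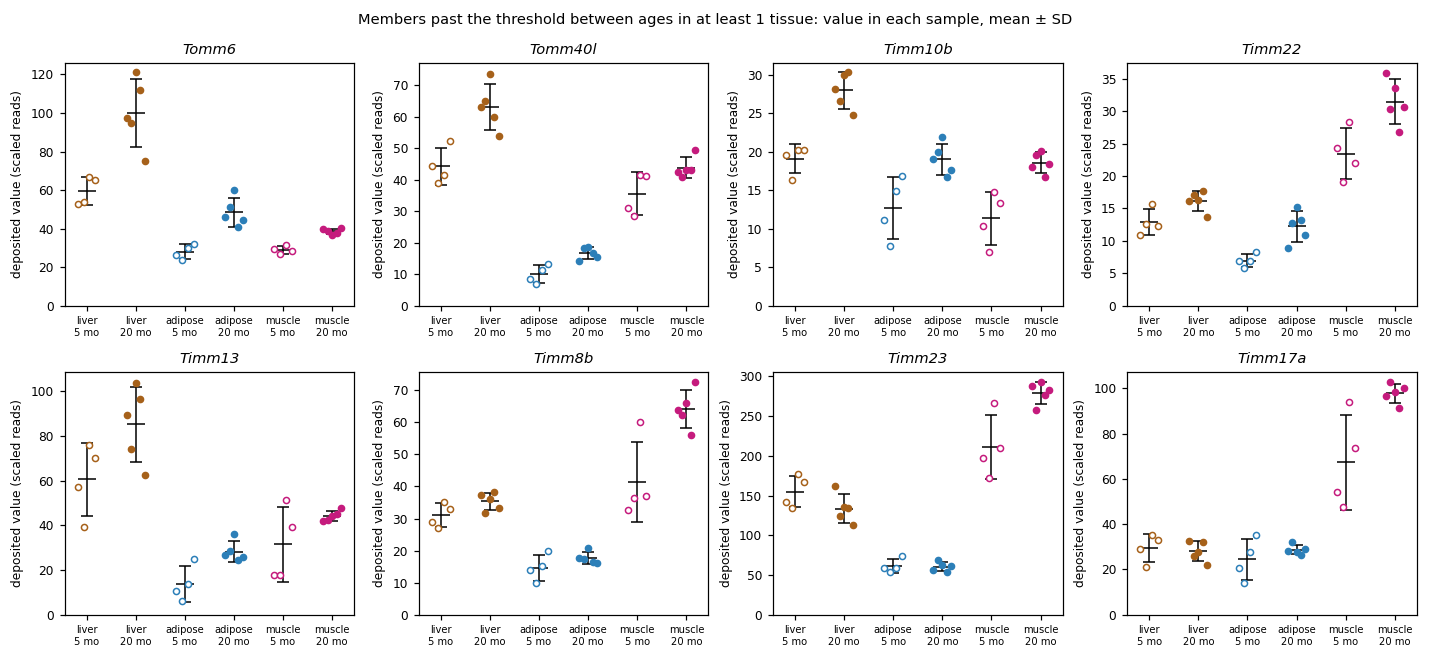
Deposited values (y axis, scaled reads) in each sample of the 8 members that limma called between ages in at least 1 tissue, open at 5 months (n = 4) and filled at 20 months (n = 5), with the mean ± SD in black. *Tomm6* at 20 months lies above 5 months in all 3 tissues, while in muscle 1 young sample of *Timm8b*, *Timm23*, *Timm17a* and *Timm22* reaches the older group.

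The counts of called members depended on which samples were included, both young and old. In every tissue mice A and B had the lowest member levels of the 5-month group. The mean deviation of the tested members from the tissue mean, on the log2 scale, was -0.11 and -0.24 for mice A and B in liver, -0.21 and -0.39 in adipose tissue and -0.30 and -0.42 in muscle. The median deviation of all tested genes with at most 1000 exon bases was low in the same libraries, at -0.17 and -0.38, -0.39 and -0.60, and -0.31 and -0.33. Of the members, 6 have exons of at most 1000 bases: *Tomm6*, *Timm8b*, *Timm10*, *Tomm5* and the untested *Tomm20l* and *Timm8a2*. Among these, limma called *Tomm6* and *Timm8b* between ages. At 20 months the short genes stood at -0.05 to 0.24 in liver, 0.02 to 0.38 in the adipose libraries and 0.06 to 0.17 in muscle. Old liver sample 74 also had a low mean deviation of the members, -0.21, beside -0.05 for its short genes. With a trend on exon length and GC content removed, there were 3 higher and 2 lower calls in liver, 4 higher in adipose tissue and 6 higher in muscle. In liver the lower calls were *Timm10* and *Timm23*, and in muscle *Timm17a* was no longer called while *Tomm40l* was. By the study's own measurements, residual *Mlx* in young muscle was lowest in mouse B and highest in mouse C. In young adipose tissue it was lowest in mouse B and highest in mouse A. Its relation to the member levels was not tested.

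Leaving out both mice A and B, an alternative chosen after seeing the data, left 0, 0 and 1 member called, the latter being *Timm10*, lower in old muscle. With these mice gone only 2 young samples per tissue remained, and the calls over all genes also fell, to 93 in liver and 14 in adipose tissue but 1126 in muscle. *Tomm6* then changed by 0.58 in liver (limma adjusted p = 0.109), 0.61 in adipose tissue (0.135) and 0.36 in muscle (0.0515). In adipose tissue the count of 4 became 1 without mouse A, 1 without mouse B, 9 without mouse D, 1 without old sample 39 and 2 without any of old samples 37, 38 or 40. In muscle the count of 6 became 3 without mouse A, 3 without mouse B, 12 without mouse C and 3 without any of old samples 56, 58 or 60. In liver it stayed between 2 and 4.

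**Figure D5:**
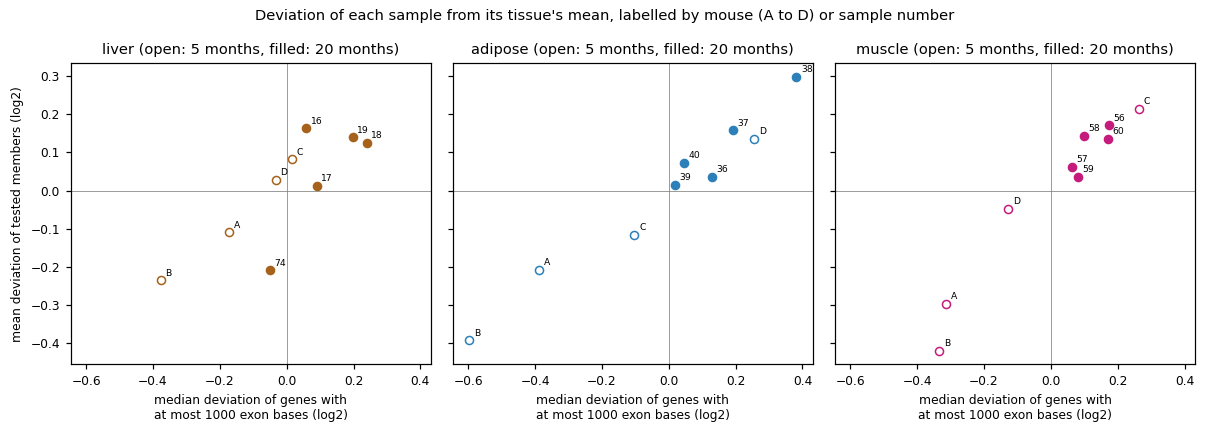
Mean log2 deviation of the tested members from their tissue mean (y axis) against the median deviation of all tested genes with at most 1000 exon bases (x axis) for each sample, labelled by mouse letter or sample number, open at 5 months and filled at 20 months. Mice A and B lie at the lower left in each tissue, between -0.11 and -0.42 on the y axis.

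Summed markers of other cell types and of handling stress moved with age in some tissues, while how the samples were handled is not recorded. In liver the summed hepatocyte markers were 105506 to 165054 at 5 months and 45490 to 99181 at 20 months, with all 6 detected, and the sum of 7 macrophage markers was 212 to 333 and 249.1 to 837. Without overlap between ages, the liver sum of 5 fibroblast markers was 37.4 to 59.4 and 63.9 to 158, and that of 4 erythroid markers 487 to 611 and 732 to 966. In adipose tissue the macrophage sum was 749 to 1703 and 1127 to 5513. The adipose sum of 5 B cell markers was 3.10 to 17.3 and 12.3 to 167, and that of 5 T cell markers 4.99 to 10.3 and 5.65 to 48.6. For 5 endothelium markers it was 581 to 1294 and 372 to 684. The adipose sum of 4 epididymis and testis markers was 2.84 to 4.13 and 32.6 to 52.5. Of these 4, *Dazl* and *Defb1* were at or under 3 reads in every young sample and *Defb1* in every old one. At each age only 1 of the 4 was above 3 reads in every sample, so the sum does not show that such tissue was present. The sum of 6 markers of thermogenic adipocytes was 7.10 to 10.1 in young and 11.97 to 36.6 in old adipose tissue. The same 6 genes summed to 342 to 482 in young and 34.3 to 473 in old liver, and to 674 to 1003 and 821 to 930 in muscle. The list is therefore not specific to such adipocytes in these data. In muscle the sum of 6 handling stress genes was 474 to 10430 at 5 months and 116 to 286 at 20 months, and that of 5 fibroblast markers was 419 to 757 and 204 to 305. The macrophage sum in muscle was 137 to 218 and 78.7 to 155. The sum of 5 slow fibre markers was 1601 in the young muscle of mouse A, beside 176 to 218 in the other young mice and 98.5 to 418 in old muscle. Without the young muscle samples B and D, which had the highest stress sums, 0 of the members were called in muscle, beside 895 of all genes, and *Timm10b* was at 0.55 (limma adjusted p = 0.0535). The part of these cell types in the member changes was not tested.

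Whether the age change differed between tissues was tested directly. Liver against adipose tissue gave 0 of 23 members beside 15.6% of all genes, liver against muscle gave 1 of 23 beside 17.5%, and adipose tissue against muscle gave 0 of 23 beside 14.7%. At an unadjusted p under 0.05 limma gave 5, 5 and 3 members, and edgeR and DESeq2 each called 0, 1 and 0 after adjustment. The member called was *Timm23*, whose age change was 0.42 in muscle and, short of the threshold, -0.21 in liver. Its age change in liver minus that in muscle was -0.63 ± 0.17 (SE; 95% interval -0.98 to -0.28; limma adjusted p = 0.0127). Leaving out any single library kept the call, with values between -0.75 and -0.54, whereas leaving out mice A and B gave -0.60 (0.0521) and leaving out the young muscle samples B and D gave -0.50 (0.0949). With the mouse as a replicate block, the counts were 1, 2 and 0. The count of 0 between liver and adipose tissue became 1 to 3 without young liver C or D, old liver 16 or 17, young adipose B or D, or old adipose 36 or 40. The count of 1 between liver and muscle became 2 or 3 without young liver A or B, old liver 16 or 19, or young muscle C. The count of 0 between adipose tissue and muscle became 1 without young adipose D, old adipose 36, or young muscle B or C.

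*Tomm6*, called in each tissue, did not differ between tissues past the threshold: its age change in liver minus that in muscle was 0.33 (95% interval -0.03 to 0.69) and in adipose tissue minus that in muscle 0.36 (-5.7e-04 to 0.72). The nearest to the threshold in liver against adipose tissue was *Tomm6os*, at 0.61 (limma adjusted p = 0.0512).

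The partners of these members in import were examined on a list of 36 other genes. In liver 1 rose and 6 fell, beside 10% and 9.79% of all genes, with a median log2 change of -0.14. *Hspa9*, the mitochondrial Hsp70 of the import motor, fell from 867 to 544 (log2 change -0.71, limma adjusted p = 0.0246), and *Clpx*, the unfoldase of the matrix protease, and *Hspd1*, the matrix chaperonin, fell by 0.62 and 0.57. *Immp2l*, an inner membrane peptidase, rose from 16.1 to 27.9 (0.80, 0.0460). In adipose tissue, where 9.75% of all genes rose and 9.35% fell, 1 rose, the SAM subunit gene *Mtx2* (0.48, 0.0437), and 1 fell, *Clpx* (-0.41, 0.0352). In muscle 7 rose and 0 fell, beside 9.13% and 10.1% of all genes, the largest being *Immp2l* (0.58, 0.0104), *Immp1l* (0.53, 0.0194) and the motor subunit gene *Dnajc19* (0.49, 0.0349). At an unadjusted p under 0.05 limma placed 1 of the 36 lower in muscle, *Pitrm1*, which encodes a presequence protease, named here after its values were seen. The list was not run in edgeR or DESeq2.

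Other mitochondrial gene families were counted in the same tests, with no test of the difference between families. Of 37 complex I *Nduf* genes, 2 rose and 1 fell in liver, 3 rose in adipose tissue and 10 rose in muscle, and of 77 mitochondrial ribosomal protein genes, 6 rose and 1 fell, 8 rose and 1 fell, and 18 rose. Over all genes tested, 10%, 9.75% and 9.13% rose in liver, adipose tissue and muscle and 9.79%, 9.35% and 10.1% fell. Their median log2 changes were 0.12, 0.41 and 0.33 for *Nduf* and 0.12, 0.28 and 0.29 for ribosomal proteins, beside 0.04, 0.16 and 0.25 for the *Timm* and *Tomm* members. The comparisons in each tissue use the same samples. In each tissue, genes with at most 1000 exon bases were also low in young mice A and B. The part of exon length in the changes of these families was not tested.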

How the data were processed

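Bulk RNA-seq libraries were prepared by the authors with a strand-keeping kit, and gene values were made by them with CLC Genomics Workbench. The genome, annotation and strand setting of that counting are not given in the sources used here. The deposited values are a signal: reads per gene scaled to library size and divided by a further factor of each sample. In each sample 100% of values were whole multiples of 1 read (tolerance 0.01), so reads were recovered for the count tests.

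Members were the rows whose symbol begins with Timm or Tomm and a number. The members and lists were chosen with earlier results of these data known. Genes named were members called between ages (at most 8 each way) or in the difference of age changes (5), the 4 with the largest tissue difference each way, untested members, related pairs, the 3 import list genes changed most each way among those called, and Mlx. Values were tested as log2(value + 1) with limma 3.58.1 (with a trend in the variance) in R 4.3.3. Genes entered where 4 or more samples reached a value of 1, and calls were Benjamini-Hochberg adjusted p under 0.05. Age was tested within each tissue, and tissue and age differences over all 27 samples. edgeR 4.0.16 and DESeq2 1.42.0 on recovered reads were alternatives (edgeR called 2578, 2692 and 2453 genes between ages in liver, adipose tissue and muscle), beside other pseudocounts, filters, scalings and omitted samples. Scripts were tested on simulated data.

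Exon lengths came from GENCODE, and positions and promoters from RefSeq, build GRCm38.p6. The numbers of the 5-month samples name the same mice, so tissues of a mouse are paired: same-mouse correlations of deviations ran from -0.0169 to 0.294 (mean 0.136), and between different mice averaged -0.0450. Of 48 replicate pairs, 0 were identical. Nothing says more of how samples within an age were collected, so p-values measure the spread between these samples. Precision is limited by 4 and 5 samples a group.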

Additional observations from a re-analysis of the deposited data

Results flagged for a closer look

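In 138 groups of 4 or 5 samples, 8 had a highest or lowest sample farther from the others than Dixon's 95% limit, and chance gives about 1 in 20, or 6.9. In young mouse C, *Tomm20* in muscle was 123 beside 103 at most in the others, *Timm8b* in muscle was 59.96 beside 36.9 at most, and *Tomm22* in liver was 52.8 beside 49.1 at most. *Timm10b* in the liver of young mouse B was 16.4, below 19.6 in the next lowest. *Timm17b* in the adipose tissue of young mouse D was 11.9, above 9.79. Among old samples, *Tomm40l* in muscle 60 was 49.5, above 43.1, *Tomm70a* in muscle 56 was 126, above 105, and *Tomm70a* in adipose 36 was 49.6, below 55.7.

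The age change of *Timm23* differed between liver and muscle by -0.63 on the log2 scale, by limma's test of the difference over all samples.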

How the results depend on the processing

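Of 291 planned recomputed counts of called members, 240 stayed within 1.5 times the reported count. These pool the tissue level counts, of which leaving out 1 sample moved 0, with less stable age counts. Leaving out 1 sample moved the age count in 7 of 9 cases in adipose tissue, 6 of 9 in muscle and 0 of 9 in liver. Of 1527 planned recomputed changes of single members, 44 lost a call, 47 gained one and 0 reversed. Most were of members not called in the main test, which could not lose a call. A change of direction counted as reversed only where either fit made a call. The cause of the shifts below was not tested. Called between ages in liver were 9 members after rescaling without the 20 most abundant genes, 7 with array weights, 5 with the length and GC trend removed (in both, *Timm10* and *Timm23* lower and the rest higher) and 0 without mice A and B. In adipose tissue these were 14 with array weights (11 higher and 3 lower, *Timm44*, *Timm9* and *Tomm6os*), 8 with all 27 samples in the fit (*Tomm6os* lower) and 0 without the mice, and in muscle 3 with no filter, 1 (*Timm10*, lower) without the mice and 0 without young muscle samples B and D. For the difference of age changes between liver and adipose tissue, rescaling gave 2, no variance trend 1, array weights 11 and the replicate block 1. Between liver and muscle, array weights gave 5, the length and GC trend 2, the replicate block 2, both together 2, only these tissues 2, and leaving out young muscle B and D gave 0. Between adipose tissue and muscle, rescaling gave 1, array weights 5, quantile normalization 1, the length and GC trend 2, the replicate block with that trend 4, and leaving out those muscle samples 1. The liver against adipose tissue level count at 5 months was 14 after rescaling. The replicate block changed no other count by over 1.5 times. Leaving out 1 sample at a time gave, between ages, 2 to 4 members in liver, 1 to 9 in the adipose libraries and 3 to 12 in muscle. It gave 0 to 3, 1 to 3 and 0 to 1 for the differences of age changes (liver and adipose tissue, liver and muscle, adipose tissue and muscle). Leaving out both mice, or both muscle samples, was chosen after seeing the data. Low read numbers limit *Timm8a2*, *Tomm20l* and *Tomm6os*.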
